A study of Mus musculus with 8 samples.

Results

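The acrosome genes described here are 8 genes chosen by name, Acr, Acrbp, Zpbp, Zpbp2, Zp3r, Acrv1, Spaca1 and Spata16, whose proteins build or fill the acrosome of sperm. All 8 were among the 23235 gene symbols listed, and 8 of 8 passed the filter on low values, an FPKM (sequenced fragments scaled to the length of the transcript and to the mapped reads of the library) above 1 in at least 1 library, which 15899 of 23235 symbols passed. Mouse spermatocytes were sorted by flow cytometry into leptotene and zygotene cells (LZ) and pachytene and diplotene cells (PD) from WT and Cnot4-null males, with 2 libraries in each of the 4 groups. All animals were C57BL/6 males, and the methods prepare cells from mice 6 weeks old. The Cnot4-null males were Cnot4 fl/fl;Stra8-Cre, in which Cre acts in germ cells shortly before meiosis and removes exon 2, which shifts the reading frame, and neither the labels nor the methods say whether the WT males carried Cre or a floxed allele. The methods call the duplicates biological replicates, and nothing in the labels says whether they came from separate animals. The methods describe Smart-Seq2 amplification of sorted cells, whereas the labels describe Trizol extraction and TruSeq libraries, and which was used is not known. The deposited values hold no read counts per gene, so no counting error is given, and the total reads that the study lists for each library were not used here.

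The acrosome is a secretory vesicle that caps the sperm nucleus and is assembled from Golgi-derived vesicles after meiosis, in round spermatids. It holds proteases, inhibitors and proteins that bind the zona pellucida, the coat of the egg, and it releases them by exocytosis at fertilization. Transcripts of some acrosomal proteins are made in pachytene spermatocytes and stored, whereas others are transcribed mainly in spermatids.

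Cnot4, the targeted gene, encodes an E3 ubiquitin ligase associated with the CCR4-NOT deadenylase complex. Its level was 36.0 and 34.9 FPKM in WT LZ, 76.6 and 73.1 in WT PD, 43.2 and 34.6 in Cnot4-null LZ, and 65.9 and 53.5 in Cnot4-null PD. Cnot4 RNA was thus present in every library, and a value per gene cannot show the loss of an exon, so these levels do not test the genotype. The stage labels were checked against markers. In WT, 6 of 6 PD markers were higher in PD than in LZ by limma at an adjusted p under 0.05, the rule for a call throughout, led by Adam3 at 5.95 and Ldhc at 5.71 on the log2 scale. Of 7 LZ markers, 5 were lower, led by Dmc1 at -5.51 and Stra8 at -5.20, and Spo11 was higher at 2.69. In Cnot4-null, 5 of 6 PD markers were higher in PD, led by Ldhc at 5.16 and Adam3 at 5.01, and 6 of 7 LZ markers were lower, led by Dmc1 at -3.41 and Prdm9 at -2.80, with Spo11 higher at 1.34. The libraries labelled Cnot4-null PD stood apart from the other groups in further ways. Symbols above 1 FPKM numbered 13887 and 14249 there, 10103 and 10076 in WT PD and 11538 to 11823 in the LZ libraries. Symbols listed at 0 numbered 5061 and 6016 there, 7154 and 7380 in WT PD and 7174 to 7460 in LZ. Their Leydig cell markers summed to 10082 and 22306 FPKM, against 116 and 7.07 in WT PD, and these and other markers are given with the results they move with.

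The 8 genes lie on 7 autosomes of NCBIM37, the assembly of mm9, and no pair of them overlaps. In GENCODE vM1, Acr (ENSMUSG00000022622.3) spans chr15:89398757-89405015 on the plus strand, and Acrbp (ENSMUSG00000072770.3) chr6:124999707-125013285 on the plus strand. Zpbp (ENSMUSG00000020193.3) spans chr11:11179629-11362411 on the minus strand, its paralog Zpbp2 (ENSMUSG00000017195.9) chr11:98412411-98419979 on the plus strand, and Zp3r (ENSMUSG00000042554.4) chr1:132473290-132526198 on the minus strand. Acrv1 (ENSMUSG00000032110.3) spans chr9:36500805-36506422 on the plus strand, Spaca1 (ENSMUSG00000028264.9) chr4:34111849-34137166 on the minus strand, and Spata16 (ENSMUSG00000039335.5) chr3:26536542-26882134 on the plus strand. Most of these transcripts had short 3′UTRs. In the longest coding transcript of each gene, the 3′UTR ranged from 87 nt in Spaca1 to 355 nt in Zpbp2 in 7 of 8 genes and was 2980 nt in Zpbp, with a median of 210.5 nt against 878 nt over the 14408 of 15899 tested genes with a coding transcript (90.6%). The median coding length was 1266 nt, against 1269 nt over the same genes.

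Promoters are shown for the pair of members called higher in Cnot4-null PD than in WT PD, Acrv1 and Spaca1, and for the paralogs Zpbp and Zpbp2, which were called lower there. RefSeq promoters of GRCm38.p6, each with 250 bases before and 50 after the annotated start, matched 7 of 8 members by symbol (not Acr), and each was found once in NCBIM37 by exact match. They lie at chr9:36500555-36500854 on the plus strand (Acrv1), chr4:34136991-34137290 on the minus strand (Spaca1, the first of its 2 entries), chr11:11362373-11362672 on the minus strand (Zpbp) and chr11:98412161-98412460 on the plus strand (Zpbp2). Capitals mark matches, on either strand, to TGACG, the core of the cAMP response element that CREM binds, to AACTG or AACGG, the core bound by MYB factors such as MYBL1, and to ACACAC, a repeat that binds TDP-43 and has been studied in the Acrv1 promoter. TGACGTCA, the full cAMP response element, which contains TGACG, and GTTGCC, a part of the X-box that RFX factors bind, were searched too and matched none of the sequences printed.
Acrv1: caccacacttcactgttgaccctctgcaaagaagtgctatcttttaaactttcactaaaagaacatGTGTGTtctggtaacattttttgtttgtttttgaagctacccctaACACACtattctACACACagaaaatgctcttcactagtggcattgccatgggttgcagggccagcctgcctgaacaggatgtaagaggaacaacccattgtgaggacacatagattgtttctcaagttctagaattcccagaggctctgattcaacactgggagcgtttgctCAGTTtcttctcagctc
Spaca1: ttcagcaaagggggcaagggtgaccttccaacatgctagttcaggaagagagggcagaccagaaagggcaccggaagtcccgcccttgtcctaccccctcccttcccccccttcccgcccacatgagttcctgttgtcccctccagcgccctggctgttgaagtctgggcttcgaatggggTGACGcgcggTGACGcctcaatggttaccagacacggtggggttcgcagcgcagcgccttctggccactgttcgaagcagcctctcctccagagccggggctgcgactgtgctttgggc
Zpbp: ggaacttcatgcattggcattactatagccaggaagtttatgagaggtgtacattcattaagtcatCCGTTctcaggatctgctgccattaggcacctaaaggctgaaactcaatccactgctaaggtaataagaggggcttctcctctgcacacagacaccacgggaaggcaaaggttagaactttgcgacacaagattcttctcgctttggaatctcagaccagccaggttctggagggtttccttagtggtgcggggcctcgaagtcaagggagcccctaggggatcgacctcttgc
Zpbp2: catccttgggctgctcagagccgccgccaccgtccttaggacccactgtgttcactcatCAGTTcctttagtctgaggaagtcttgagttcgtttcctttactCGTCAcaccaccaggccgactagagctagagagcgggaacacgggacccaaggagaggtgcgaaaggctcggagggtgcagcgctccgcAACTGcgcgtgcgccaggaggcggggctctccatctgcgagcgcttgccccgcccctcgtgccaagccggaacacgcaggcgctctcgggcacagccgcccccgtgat
Acrv1 held ACACAC in 3 places and a MYB core 34 bases into the transcript, and Spaca1 held TGACG in 2 places, at -69 and -59 from the start. Zpbp held a MYB core at -184, and Zpbp2 held TGACG at -147 and MYB cores at -191 and -58. Of the 3 promoters not shown, Acrbp held TGACG, a MYB core and GTTGCC once each, Zp3r a MYB core and GTTGCC, and Spata16 a MYB core. Among 32851 promoters of the same length, 20.8% held TGACG, 55.1% a MYB core, 17.4% ACACAC, 12.5% GTTGCC and 1.79% TGACGTCA. A match describes letters in these windows and does not show a bound site.

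The proteolysis genes were high in PD of both genotypes. Acr encodes proacrosin, the precursor of the serine protease acrosin, and Acrbp the protein that binds proacrosin and holds it in the granule. Acr had 2.17 and 8.77 FPKM in WT LZ, 145 and 150.4 in WT PD, 0.768 and 1.48 in Cnot4-null LZ, and 86.3 and 46.5 in Cnot4-null PD. Both PD groups of Acr lay above both LZ groups, and in each stage both Cnot4-null libraries lay under both WT libraries. Acrbp had 11.3 and 19.8 FPKM in WT LZ, 488 and 448 in WT PD, 10.2 and 7.51 in Cnot4-null LZ, and 318 and 153 in Cnot4-null PD. Its groups stood in the same order as those of Acr, again without overlap between the genotypes. The annotated start of Acrbp overlaps Ing4 on the same strand for 1811 bases. Ing4 was between 5.50 and 16.8 FPKM in the 8 libraries, and its share of Acrbp values was not tested.

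The genes of zona-binding matrix proteins divided into a paralog pair that was high in WT PD and a gene that was low there. Zpbp and Zpbp2 encode acrosomal matrix proteins that bind the zona and shape the sperm head, and Zp3r encodes sp56, a matrix protein with affinity for the zona glycoprotein ZP3. Zpbp had 5.11 and 7.72 FPKM in WT LZ, 123 and 136 in WT PD, 4.84 and 3.56 in Cnot4-null LZ, and 60.6 and 24.5 in Cnot4-null PD. Zpbp2 had 5.82 and 13.8 FPKM in WT LZ, 835 and 805 in WT PD, 4.55 and 3.49 in Cnot4-null LZ, and 326 and 114 in Cnot4-null PD. Both paralogs were highest in WT PD, intermediate in Cnot4-null PD and low in LZ, with no overlap between the genotypes at either stage. Zp3r had 0.425 and 0.804 FPKM in WT LZ, 4.62 and 2.44 in WT PD, 0.182 and 0 in Cnot4-null LZ, and 23.4 and 5.58 in Cnot4-null PD. Zp3r had the lowest mean of the members in every group, and both Cnot4-null PD values were above both WT PD values. Whether its 0 in Cnot4-null LZ is a low level or a failed estimate cannot be told from these values.

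The start of Zpbp also overlaps that of 4930415F15Rik, a gene on the opposite strand named here for its position, after its values were seen. 4930415F15Rik had 2.83 and 3.75 FPKM in WT LZ, 6.76 and 7.26 in WT PD, 5.76 and 1.61 in Cnot4-null LZ, and 64.7 and 32.7 in Cnot4-null PD. Both Cnot4-null PD values lay above the other 6. At PD the genotype difference of 4930415F15Rik was 2.55 on the log2 scale (limma, adjusted p = 0.00511), in the other direction from that of Zpbp given with the PD comparison.

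The genes of the vesicle and its membrane held a pair that was high in Cnot4-null PD alone and a gene that was highest in WT PD. Acrv1 encodes SP-10 of the acrosomal matrix and membranes, Spaca1 an inner acrosomal membrane protein needed for the shape of the acrosome, and Spata16 a Golgi protein that moves with proacrosomal vesicles. Acrv1 had 4.54 and 17.2 FPKM in WT LZ, 16.5 and 15.01 in WT PD, 2.24 and 2.97 in Cnot4-null LZ, and 139 and 100.5 in Cnot4-null PD. Spaca1 had 6.98 and 20.8 FPKM in WT LZ, 20.0 and 11.7 in WT PD, 7.47 and 6.43 in Cnot4-null LZ, and 139 and 78.7 in Cnot4-null PD. For both genes the WT stages overlapped, and the Cnot4-null PD libraries alone were high. Spata16 had 2.50 and 6.51 FPKM in WT LZ, 308 and 274 in WT PD, 1.31 and 1.06 in Cnot4-null LZ, and 150.2 and 52.6 in Cnot4-null PD. Spata16 thus followed the order of Acr, Acrbp, Zpbp and Zpbp2.

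**Figure D1:**
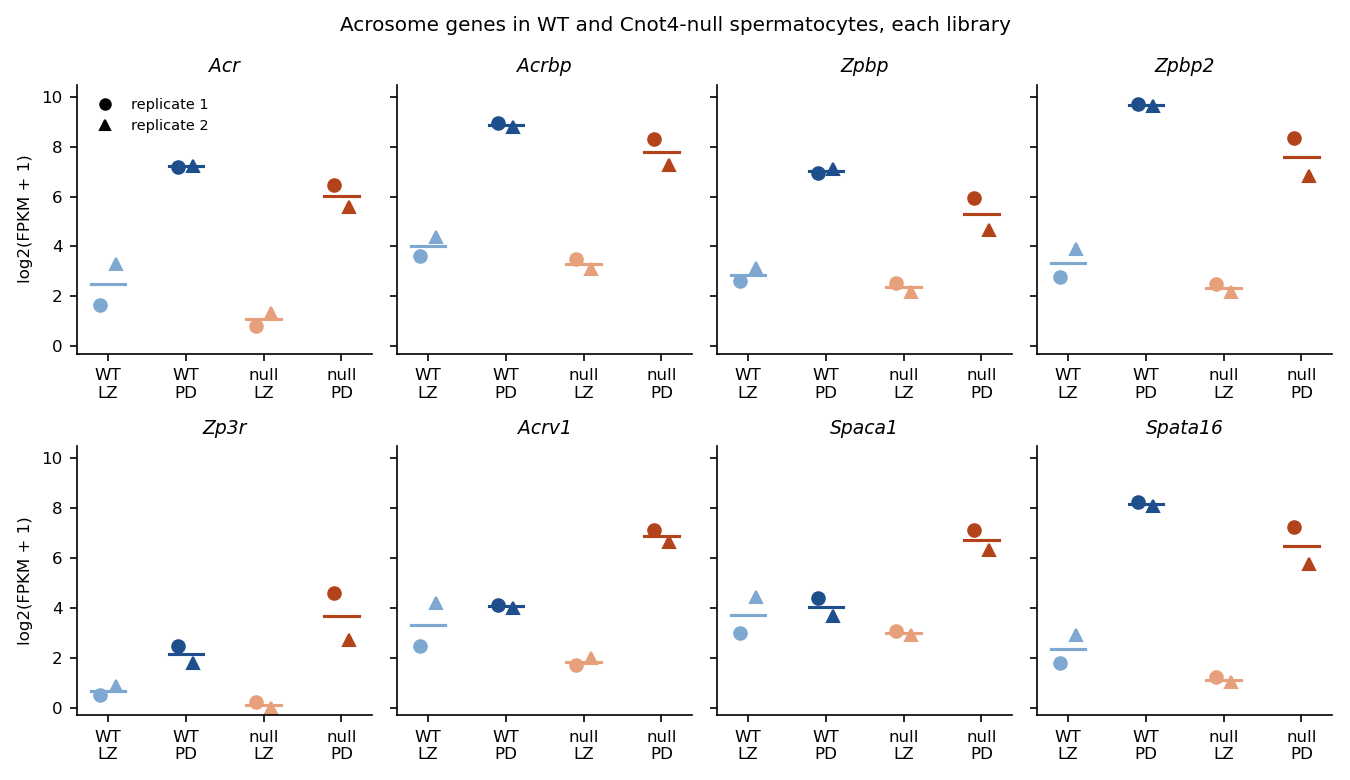
Level of each acrosome gene in each library, as log2(FPKM + 1), with circles for replicate 1, triangles for replicate 2 and a line at the mean of each group. Acr, Acrbp, Zpbp, Zpbp2 and Spata16 were highest in WT PD, whereas Zp3r, Acrv1 and Spaca1 were highest in Cnot4-null PD.

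In WT PD the order of mean levels was Zpbp2 at 819.9 FPKM, Acrbp at 468, Spata16 at 291, Acr at 148, Zpbp at 129.6, Spaca1 at 15.9, Acrv1 at 15.8 and Zp3r at 3.53, and of these neighbours only Spaca1 and Acrv1 overlapped. In Cnot4-null PD the order was Acrbp at 236, Zpbp2 at 220.1, Acrv1 at 119.7, Spaca1 at 109, Spata16 at 101, Acr at 66.4, Zpbp at 42.6 and Zp3r at 14.5, and each neighbouring pair overlapped except Zpbp and Zp3r. Acrv1 and Spaca1 thus moved from the lower end of the order in WT PD to its middle in Cnot4-null PD. At LZ, Acrbp led in both genotypes at 15.5 and 8.85 FPKM, followed by Spaca1 at 13.9 and 6.95. The other LZ means ranged from 0.615 (Zp3r) to 10.9 FPKM (Acrv1) in WT and from 0.0909 (Zp3r) to 4.20 FPKM (Zpbp) in Cnot4-null. Neighbours overlapped in WT LZ down to Spata16, and in Cnot4-null LZ only Zpbp with Zpbp2 and Spata16 with Acr overlapped. Summed over the 8 genes, the level was 38.9 and 95.4 FPKM in WT LZ, 1941 and 1842 in WT PD, 31.6 and 26.5 in Cnot4-null LZ, and 1243 and 576 in Cnot4-null PD.

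The duplicates differed in the same direction for all members in a pair of groups. In WT LZ, replicate 2 was above replicate 1 in 8 of 8 members, by ratios from 1.51 to 4.05, as in 43.3% of all tested genes. In Cnot4-null PD, replicate 2 was below replicate 1 in 8 of 8 members, with ratios from 0.238 to 0.725, as in 52.7% of all tested genes. In WT PD and in Cnot4-null LZ, replicate 2 was the higher in 2 members and the lower in 6. The PD markers, with Ldhc the most abundant and none at 0, moved with these differences in sum. Their summed level was 171 and 283 FPKM in WT LZ, 11577 and 10662 in WT PD, 174 and 48.8 in Cnot4-null LZ, and 5188 and 1753 in Cnot4-null PD. Piwil1 went the other way in WT LZ (14.0 and 3.86 FPKM) and Hist1h1t in Cnot4-null PD (2.85 and 3.47 FPKM). The part of the PD markers in the differences between replicates was not tested.

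Patterns were compared after each gene was centred on its mean log2(FPKM + 1) over the 8 libraries, by the root mean square difference. Among the 28 pairs of members, Zpbp2 and Spata16 were nearest at 0.20, followed by Acr and Acrbp at 0.41, and Acrv1 and Spaca1 were 0.56 apart. Zpbp2 and Spaca1 were farthest apart at 2.55, and the paralogs Zpbp and Zpbp2 differed by 1.17. Outside the members, 9341 genes with a mean of at least 5 FPKM were searched. For Acr the nearest were Rsph6a (0.17), Tekt3 (0.21) and Ccdc42 (0.23), for Acrbp Dnali1 (0.11), Ropn1l (0.16) and Ccdc110 (0.16), and for Zpbp Epsti1 (0.096), Ndufaf3 (0.11) and Rfx8 (0.13). For Zpbp2 they were Pabpc6 (0.20), Ppp3r2 (0.21) and Gk2 (0.21), and for Spata16 Gm7444 (0.12), 1700018F24Rik (0.15) and Gk2 (0.19). For Acrv1 they were Plac8l1 (0.16), Sun5 (0.24) and Efcab9 (0.24), for Spaca1 Cabyr (0.17), Slc22a14 (0.19) and Isg20 (0.23), and for Zp3r Pde1a (0.26), Spata9 (0.30) and Slxl1 (0.35). Plac8l1 had 2.23 and 13.7 FPKM in WT LZ, 11.2 and 10.7 in WT PD, 1.49 and 1.84 in Cnot4-null LZ, and 80.2 and 72.4 in Cnot4-null PD, so that, as for Acrv1, the WT stages overlapped and Cnot4-null PD alone was high.

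The comparison of WT PD with WT LZ asks which acrosome genes are already raised in pachytene and diplotene cells. Acr, Acrbp, Zpbp, Zpbp2 and Spata16, which encode a protease, its partner, matrix proteins and a Golgi protein, were raised more than 20-fold in mean FPKM, from 20.2-fold for Zpbp to 83.5-fold for Zpbp2. Acrv1 and Spaca1 were at similar levels in both stages, with means of 15.8 and 10.9 FPKM for Acrv1 and 15.9 and 13.9 FPKM for Spaca1. Zp3r was low in both stages, and both PD values were above both LZ values. In bulk samples, more RNA per cell and more cells of a type that holds the RNA cannot be told apart. With limma on log2(FPKM + 1), a scale that understates changes of genes with low values, 5 of 8 members were called higher and 0 lower (6 of 8 at an unadjusted p under 0.05), against 21.6% of all 15899 tested genes called higher and 36.2% called lower. The log2 fold change was 4.74 for Acr (SE 0.53, adjusted p = 0.000240), 4.87 for Acrbp (SE 0.39, 6.05e-05), 4.16 for Zpbp (SE 0.41, 0.000141), 6.35 for Zpbp2 (SE 0.53, 6.90e-05) and 5.83 for Spata16 (SE 0.52, 9.26e-05). The median was 4.45 over the members and -0.32 over all genes, which quantile normalization moved by 0.25 and rescaling to the same median by 0.19. Relative to the median of all genes, these 5 changes ranged from 4.48 (Zpbp) to 6.67 (Zpbp2). The log2 fold changes that were not called by limma were 0.74 for Acrv1 (SE 0.51, adjusted p = 0.259), 0.31 for Spaca1 (SE 0.51, 0.657) and 1.45 for Zp3r (SE 0.59, 0.0699). Markers of other cells also differed between the WT stages by limma, with 6 of 7 spermatogonial markers called lower in PD and 1 higher (median -4.65), 5 of 7 Sertoli cell markers lower and 1 higher (median -1.16), and 2 of 11 spermatid markers lower and 0 higher (median -0.54, 3 at an unadjusted p under 0.05), and their part in the stage differences was not tested. With 2 libraries a group, an exact test of 2 against 2 cannot give a p below 0.333, so the limma p-values rest on the spread pooled over the groups and measure the spread between these samples.

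Leaving out WT LZ replicate 1 or WT LZ replicate 2 moved Acr to 3.93 and 5.55 in the WT stage comparison, both called, and the values of Acrv1 and Spaca1 rested on single libraries. Without WT LZ replicate 1, Acrv1 was at -0.12 and Spaca1 at -0.41 on the log2 scale, and without WT LZ replicate 2 Spaca1 was at 1.04. Spaca1 was at -0.051 without WT PD replicate 1 and at 0.67 without WT PD replicate 2, and quantile normalization and rescaling gave 0.60 and 0.67. Without WT LZ replicate 2, Acrv1 was called higher at 1.60 by limma (adjusted p = 0.00747, range over the alternatives 0.00747 to 0.809). Zp3r was called higher in 6 of 16 alternatives, with an adjusted p of 0.0113 without Cnot4-null PD replicate 1 and 0.0121 without Cnot4-null PD replicate 2 (limma, range 0.0113 to 0.307), and quantile normalization and rescaling gave 1.96 and 1.72. Pseudocounts of 0.1 and 5 gave 2.33 and 0.59 for Zp3r.

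In Cnot4-null spermatocytes, all 3 roles were higher in PD than in LZ. Acrv1 and Spaca1, which overlapped between the WT stages, did not overlap here. The mean of Acrv1 rose from 2.61 to 119.7 FPKM, that of Spaca1 from 6.95 to 109 FPKM and that of Zp3r from 0.0909 to 14.5 FPKM. Spata16 rose 85.6-fold in mean FPKM, Acr 59.1-fold and Zpbp2 54.7-fold. With limma, 8 of 8 members were called higher, against 27.8% of all genes called higher and 18.2% called lower. The log2 fold change ranged from 2.94 for Zpbp (SE 0.41, limma adjusted p = 0.00166) to 5.37 for Spata16 (SE 0.52, 0.000501), with 5.05 for Acrv1 (SE 0.51, 0.000541), 3.74 for Spaca1 (SE 0.51, 0.00150) and 3.54 for Zp3r (SE 0.59, 0.00311; 6.10 and 1.77 with pseudocounts of 0.1 and 5). Acr was at 4.94 (SE 0.53), Acrbp at 4.51 (SE 0.39) and Zpbp2 at 5.28 (SE 0.53), with limma adjusted p-values from 0.000391 to 0.000647. Without Cnot4-null PD replicate 1, Zpbp was at 2.30, Zpbp2 at 4.52, Spata16 at 4.62 and Zp3r at 2.60, and without Cnot4-null PD replicate 2 they were at 3.58, 6.03, 6.12 and 4.49, and each stayed called. The median was 4.73 over the members and 0.19 over all genes. Quantile normalization moved the median of all genes by -0.48 and turned the split of all calls from 4423 higher and 2893 lower to 2974 higher and 4986 lower, and it left 8 of 8 members called higher. Relative to the median of all genes, the members ranged from 2.76 (Zpbp) to 5.18 (Spata16).

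Markers of other cells rose with the acrosome genes between the Cnot4-null stages. By limma, 11 of 11 spermatid markers were called higher in PD, with a median log2 fold change of 3.21, and 8 of 8 Leydig cell markers, with a median of 6.10. In WT, 0 of these 11 and 0 of these 8 were called higher in PD, and after either scaling 1 Leydig cell marker was. The peritubular markers were called higher in 5 of 5 (median 4.58, 4 after either scaling), the Sertoli cell markers in 3 of 7 (median 0.63, 1 after quantile normalization) and the macrophage markers in 3 of 8 (median 1.77, 1 after quantile normalization and 2 after rescaling). Of 7 spermatogonial markers, 1 was called higher and 1 lower, and the lower call was lost after either scaling. The summed level of each list is given with the genotypes at PD, and the part of these cells in the stage differences of Acrv1, Spaca1, Zp3r and the other members was not tested.

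**Figure D2:**
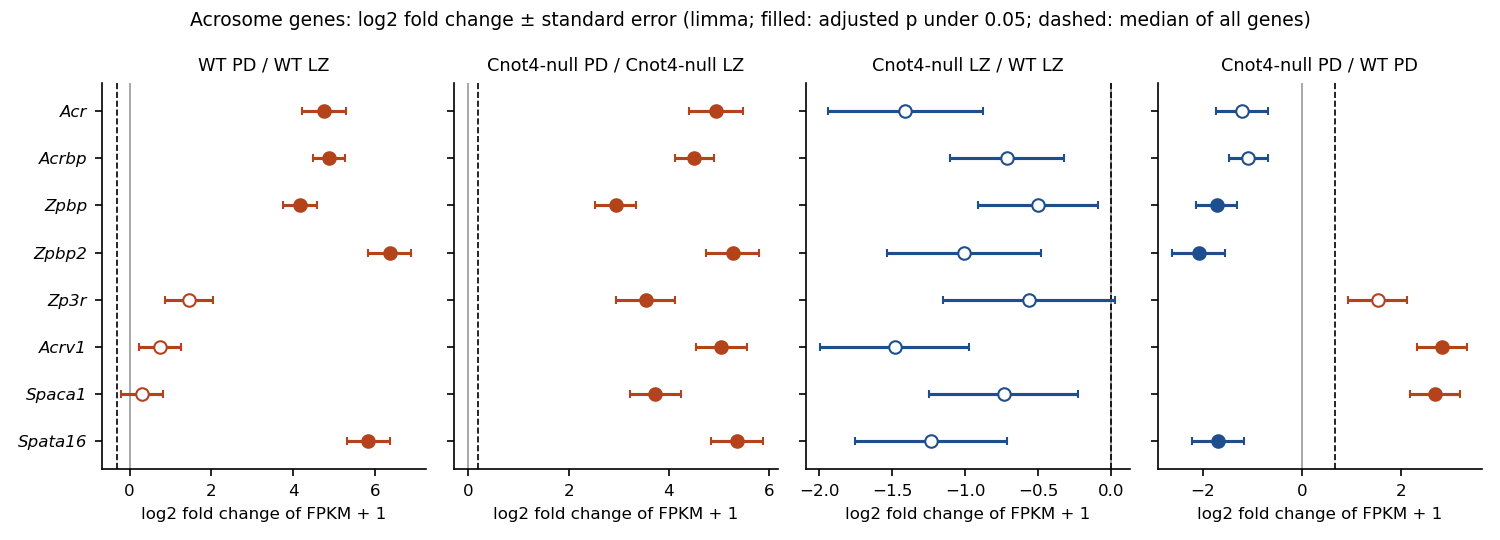
Log2 fold change of FPKM + 1 of the acrosome genes in the comparisons of stages and of genotypes, with bars of 1 standard error from limma, filled points for an adjusted p under 0.05 and a dashed line at the median of all tested genes. Acrv1 and Spaca1 were filled on the positive side in Cnot4-null PD against WT PD, where Zpbp, Zpbp2 and Spata16 were filled on the negative side.

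At LZ, the comparison of the genotypes asks whether the acrosome genes already differ before pachytene. The levels were low in both genotypes, with means under 16 FPKM for each member. In 7 of 8 members both Cnot4-null libraries lay under both WT libraries, against 18.0% of all tested genes below and 18.2% above, and for Spaca1 the genotypes overlapped. All 8 log2 fold changes were negative, from -1.48 for Acrv1 to -0.50 for Zpbp, with a median of -0.87 against 0 over all genes. With limma, 0 of 8 members were called, against 0.0692% of all genes called higher and 0.0252% called lower. At an unadjusted p under 0.05, 3 of 8 were lower with limma, against 3.63% of all genes. These were Acr at -1.41 (SE 0.53, adjusted p = 0.743), Acrv1 at -1.48 (SE 0.51, 0.720) and Spata16 at -1.23 (SE 0.52, 0.782). No difference of a member at LZ passed the adjustment over 15899 genes, and the WT LZ replicates themselves differed by up to 4.05-fold in a member. The size of the differences varied with the WT LZ library used. Without WT LZ replicate 1, Acrv1 was at -2.34, Acr at -2.22, Zpbp2 at -1.57, Spaca1 at -1.46, Acrbp at -1.09 and Zpbp at -0.76 on the log2 scale. Without WT LZ replicate 2, Acrv1 was at -0.63, Acr at -0.60, Spata16 at -0.68, Zpbp2 at -0.45, Acrbp at -0.33, Zpbp at -0.24 and Spaca1 at -0.0087. Markers of Sertoli cells were lower at LZ as well, with negative log2 fold changes in 7 of 7 (median -0.74) and 0 called by limma (4 at an unadjusted p under 0.05). The PD markers had a median of -0.51, with 2 of 6 positive and 0 called by limma (0 at an unadjusted p under 0.05). The part of these cells in the values of the acrosome genes at LZ was not tested.

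At PD, the comparison of the genotypes asks how the acrosome genes stand in the libraries labelled Cnot4-null. The members split by direction across their roles. Acrv1 of the matrix and Spaca1 of the inner membrane were higher in Cnot4-null PD, by 7.59-fold and 6.85-fold in mean FPKM. The paralogs Zpbp and Zpbp2 and the Golgi gene Spata16 were lower, with means in Cnot4-null at 0.328, 0.268 and 0.348 of those in WT. Acr and Acrbp, which encode the protease and its partner, were at 0.450 and 0.504 of WT. The mean of Zp3r was 4.11-fold that of WT, from 23.4 and 5.58 FPKM in Cnot4-null PD against 4.62 and 2.44 in WT PD. Acr, Acrbp and Zp3r were not called by limma. Both Cnot4-null values were above both WT values in 3 of 8 members and below them in 5 of 8, against 58.2% and 23.1% of all tested genes. With limma, 2 of 8 members were called higher and 3 of 8 lower, against 41.6% of all genes called higher and 11.5% called lower. The larger number of symbols above 1 FPKM in Cnot4-null PD moves with this comparison, and its part in these calls was not tested.

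The log2 fold change between the genotypes at PD was 2.83 for Acrv1 (SE 0.51, 95% confidence interval 1.64 to 4.02, limma adjusted p = 0.00384) and 2.69 for Spaca1 (SE 0.51, 1.49 to 3.89, 0.00480). It was -1.72 for Zpbp (SE 0.41, limma adjusted p = 0.0121), -2.08 for Zpbp2 (SE 0.53, 0.0145) and -1.70 for Spata16 (SE 0.52, 0.0296). It was -1.21 for Acr (SE 0.53, limma adjusted p = 0.0919), -1.08 for Acrbp (SE 0.39, 0.0511) and 1.53 for Zp3r (SE 0.59, 0.0623), which were not called. The median over the members was -1.14, against 0.66 over all genes, which quantile normalization moved by -0.77 and rescaling by -0.24. Relative to the median of all genes, Acrv1 was at 2.17, Spaca1 at 2.03 and Zp3r at 0.86, whereas Acrbp was at -1.74, Acr at -1.87, Spata16 at -2.36, Zpbp at -2.38 and Zpbp2 at -2.74. The split of all calls was 6619 higher and 1830 lower, and it became 2835 and 4078 after quantile normalization and 5520 and 3631 after rescaling. Among the members, quantile normalization gave 2 higher and 3 lower, and rescaling 2 higher and 5 lower, Acr and Acrbp included. No scaling turned the direction of a member at PD.

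At the limit of 0.05, Acrv1 and Spaca1 were called higher at PD in 17 of 17 alternatives, whereas Zpbp was called lower in 14, Zpbp2 in 12 and Spata16 in 10 of 17. At an adjusted p under 0.01, Acrv1 and Spaca1 were called by limma and Zpbp, Zpbp2 and Spata16 were not. Without WT PD replicate 1 or without WT PD replicate 2, 2 of 8 members were called, although the log2 fold changes moved little, to -1.79 and -1.65 for Zpbp, -2.05 and -2.11 for Zpbp2, and -1.61 and -1.78 for Spata16. The limma adjusted p, from a fit with 1 library in that group, was then 0.0635 and 0.0781 for Zpbp (range over the alternatives 0.00305 to 0.0781), 0.0795 and 0.0754 for Zpbp2 (0.00485 to 0.0841), and 0.135 and 0.109 for Spata16 (0.00892 to 0.167). Without Cnot4-null PD replicate 2, the lower values were all smaller, with Zpbp2 at -1.33 and Spata16 at -0.95, neither of them called, Zpbp called at -1.08, and Acr at -0.77 and Acrbp at -0.55, not called. The size of the Zp3r difference depended on Cnot4-null PD replicate 1. Zp3r was at 0.58 without it and at 0.36 after quantile normalization, and was called higher at 2.47 without Cnot4-null PD replicate 2 (limma adjusted p = 0.00819, range 0.00819 to 0.708). Without Cnot4-null PD replicate 1, the lower calls were larger, with Zpbp2 at -2.84, Spata16 at -2.44 and Zpbp at -2.35, and Acrbp was called lower at -1.60 (limma adjusted p = 0.0181, range 0.00895 to 0.268). Quantile normalization gave -0.71 for Acrbp. Without WT LZ replicate 1 or without WT LZ replicate 2, Acr was called lower with an adjusted p of 0.0343 and 0.0344 (limma, range 0.0307 to 0.413), and with a pseudocount of 5 both Acr and Acrbp were (limma adjusted p = 0.0365 and 0.0448). Without Cnot4-null LZ replicate 1 or without Cnot4-null LZ replicate 2, Spata16 was not called (limma adjusted p = 0.0610 and 0.0611). Without the filter on low values, Zpbp2 and Spata16 were not called, and with only the compared libraries in the model none of the 3 lower calls passed (limma adjusted p = 0.0607 for Zpbp, 0.0622 for Zpbp2 and 0.0853 for Spata16).

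Markers of other cells moved with the genotype at PD. The methods sort the spermatocytes by Hoechst and PI fluorescence after a published protocol and do not describe the gates. The spermatid markers, 11 of 11 found with Prm1 the most abundant in Cnot4-null PD and none at 0, summed to 2055 and 1808 FPKM in WT LZ, 592 and 434 in WT PD, 4485 and 845 in Cnot4-null LZ, and 19476 and 9533 in Cnot4-null PD. All 11 were called higher in Cnot4-null PD than in WT PD by limma, with a median log2 fold change of 3.98, led by Tnp2 at 5.65 and Prm1 at 5.35. As in the 8 members, their sum in Cnot4-null PD was larger in replicate 1 than in replicate 2. Odf1 at 184 and 364 FPKM and Smcp at 771 and 921 FPKM went the other way, and the other spermatid markers fell. The Leydig cell markers, 8 of 8 found with Insl3 the most abundant, summed to 17.2 and 9.89 FPKM in WT LZ, 116 and 7.07 in WT PD, 10.8 and 19.02 in Cnot4-null LZ, and 10082 and 22306 in Cnot4-null PD. All 8 were called higher at PD, led by Insl3 at 9.18 and Hsd3b1 at 7.03, and Lhcgr and Hsd17b3 were listed at 0 in all LZ libraries and Hsd3b6 at 0 in Cnot4-null LZ. Their sum in Cnot4-null PD was larger in replicate 2, in the other direction from the members, and of these markers only Star was lower there (22.6 and 16.4 FPKM). The PD markers were lower in sum in Cnot4-null PD, as given with the replicates, and 1 of 6 was called, Adam3 at -1.55, with 4 of 6 lower after rescaling. The part of these cells in the values of the acrosome genes was not tested.

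**Figure D3:**
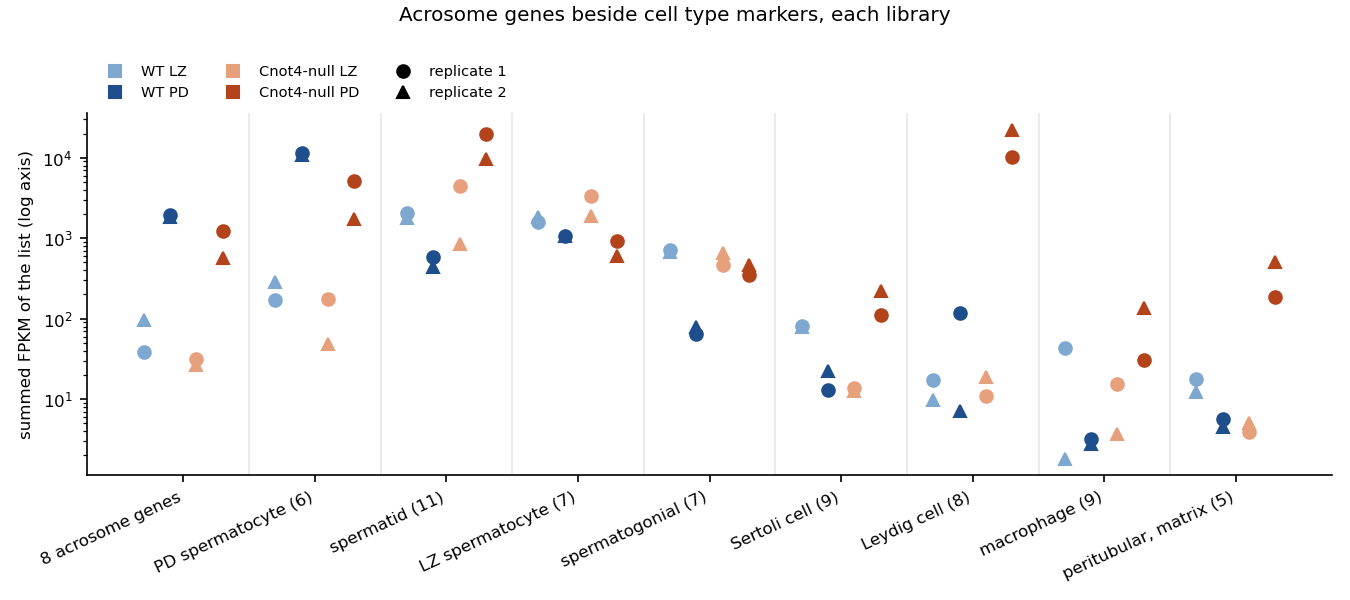
Summed FPKM of the acrosome genes and of each list of cell type markers in each library, on a log axis, with circles for replicate 1 and triangles for replicate 2. In Cnot4-null PD the acrosome genes, the PD markers and the spermatid markers were higher in replicate 1, and the Leydig cell, macrophage and peritubular markers were higher in replicate 2.

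The other marker lists gave the following sums in the order WT PD and Cnot4-null PD. The LZ markers, with Sycp3 the most abundant and none of 7 at 0, summed to 1051 and 1077 against 929 and 597 FPKM, and 3 were called higher (led by Stra8 at 4.44 and Dmc1 at 2.42) and 2 lower (Spo11 at -1.63 and Sycp3 at -1.17). The spermatogonial markers, with Uchl1 the most abundant in Cnot4-null PD and none of 7 at 0, summed to 64.8 and 79.6 against 348 and 458 FPKM, and 6 were called higher, led by Dmrt1 at 4.83 and Sohlh1 at 4.61, and 0 lower, which became 6 and 1 after rescaling. Both lists summed higher in LZ, at 1576 and 1830 FPKM (LZ markers) and 721 and 681 FPKM (spermatogonial markers) in WT and at 3332 and 1877 FPKM and 466 and 646 FPKM in Cnot4-null. The Sertoli cell markers, 9 of 10 found with Clu the most abundant, summed to 12.9 and 22.3 against 111 and 223 FPKM, and of the 7 tested 4 were called higher, led by Clu at 3.50 and Aard at 2.12, and Dhh was called lower at -1.16. Quantile normalization left 1 Sertoli cell marker higher and 1 lower and turned their median from 1.09 to -0.15. Amh was listed at 0 in all libraries of 3 groups and Fshr in both libraries of WT LZ, WT PD and Cnot4-null PD, and Dhh was listed at 0 in Cnot4-null LZ. The macrophage markers, 9 of 9 found with Lyz2 the most abundant, summed to 3.24 and 2.75 against 31.1 and 135 FPKM, and 4 of 8 tested were called higher, led by C1qa at 3.74 and C1qc at 3.50, each of which was listed at 0 in WT PD. After quantile normalization 0 of these 8 were called (limma, 2 at an unadjusted p under 0.05), with a median of 1.51 against 2.40. The 5 peritubular markers, with Sparc the most abundant, summed to 5.70 and 4.54 against 184 and 506 FPKM, and 5 of 5 were called higher, led by Acta2 at 5.55 and Sparc at 5.12, and 4 of 5 after quantile normalization. At LZ the sums for WT and Cnot4-null were 81.4 and 77.9 against 13.8 and 12.5 FPKM for Sertoli cells, 42.7 and 1.83 against 15.7 and 3.75 FPKM for macrophages, and 18.0 and 12.2 against 3.92 and 5.09 FPKM for peritubular cells. Calls are from limma, and the part of these cells in the values of the members was not tested.

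The difference between the genotypes at PD less that at LZ asks whether the effect of the genotype depends on the stage. Acrv1 and Spaca1 were below or overlapping WT at LZ and far above it at PD. Acr, Acrbp, Spata16, Zpbp and Zpbp2 had negative log2 fold changes between the genotypes at both stages. These were -1.41 at LZ and -1.21 at PD for Acr, -0.71 and -1.08 for Acrbp, and -1.23 and -1.70 for Spata16. They were -0.50 and -1.72 for Zpbp and -1.01 and -2.08 for Zpbp2. With limma, 2 of 8 members were called higher in this difference, against 26.0% of all genes, and 0 of 8 lower, against 3.97% (3 of 8 members in either direction at an unadjusted p under 0.05). The share of members called higher was thus near that of all genes. It was 4.31 on the log2 scale for Acrv1 (SE 0.72, limma adjusted p = 0.00626) and 3.42 for Spaca1 (SE 0.72, 0.0141), and 3.67 and 2.78 relative to the median of all genes. It was 2.09 for Zp3r (SE 0.84, limma adjusted p = 0.0970), -1.22 for Zpbp (SE 0.58, 0.150) and -1.07 for Zpbp2 (SE 0.74, 0.296), which were not called. The other members were at 0.20 (Acr), -0.37 (Acrbp) and -0.46 (Spata16), with limma adjusted p-values from 0.625 to 0.851, and the sign turned for Acr after rescaling (-0.26) and for Acrbp after quantile normalization (0.012). The median was -0.08 over the members (0.17 after quantile normalization and -0.54 after rescaling, which called 2 higher and 1 lower), and 0.64 over all genes, which quantile normalization moved by -0.77 and rescaling by -0.26. Of all genes, 4139 were called higher and 631 lower, 1548 and 1966 after quantile normalization, and 3279 and 1903 after rescaling. All of these comparisons share libraries, so their values are given side by side only.

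Markers of other cells showed stage dependence in the same direction as Acrv1 and Spaca1. By limma, 9 of 11 spermatid markers were called higher in the difference between the stages, with a median of 4.43, and 9 were called after either scaling. The Leydig cell markers were called higher in 8 of 8 (median 5.62, 5 called after quantile normalization), the spermatogonial markers in 6 of 7 (median 4.02, 4 after quantile normalization) and the peritubular markers in 4 of 5 (median 4.75, 3 after either scaling). The Sertoli cell markers were called higher in 5 of 7 (median 2.17), and quantile normalization gave 2 higher and 1 lower. Of the macrophage markers 0 of 8 were called (limma, 4 at an unadjusted p under 0.05), with a median of 2.40. Of the LZ markers 2 of 7 were called higher and 1 lower (1 and 1 after quantile normalization), and of the PD markers 0 of 6 (limma, 0 at an unadjusted p under 0.05), with a median of -0.80. The part of these cells in the stage dependence of Acrv1 and Spaca1 was not tested.

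At the limit of 0.05, the stage dependence of Acrv1 was called in 16 of 16 alternatives, with a limma adjusted p from 0.00460 to 0.0396, and its size moved to 5.17 without WT LZ replicate 1 and to 3.46 without WT LZ replicate 2. That of Spaca1 was called in 12 of 16 (range 0.0111 to 0.0716), and not without WT PD replicate 2 (3.06, limma adjusted p = 0.0716), without Cnot4-null LZ replicate 1 (3.52, 0.0541), without Cnot4-null LZ replicate 2 (3.33, 0.0643) or without the filter on low values (0.0617), which leaves 1 of 8 members called in each. Spaca1 was at 4.15 without WT LZ replicate 1 and at 2.70 without WT LZ replicate 2, and at an adjusted p under 0.01 Acrv1 was called by limma and Spaca1 was not. Without Cnot4-null PD replicate 1, Zpbp was called lower at -1.85 (limma adjusted p = 0.0166, range 0.0166 to 0.351), as it was after rescaling (-1.66), and without Cnot4-null PD replicate 2 it was at -0.58 and not called. Without Cnot4-null PD replicate 2, Zp3r was called higher at 3.03 (limma adjusted p = 0.0142, range 0.0142 to 0.533), as it was at 3.78 with a pseudocount of 0.1, whereas it was at 1.14 without Cnot4-null PD replicate 1, 0.90 after quantile normalization and 1.18 with a pseudocount of 5, and not called. Zpbp2, called in none of 16 alternatives, ranged from -1.83 without Cnot4-null PD replicate 1 to -0.32 without Cnot4-null PD replicate 2. The sign of Acr turned without WT LZ replicate 2 (-0.61), without Cnot4-null LZ replicate 1 (-0.041) and without Cnot4-null PD replicate 1 (-0.24). The sign of Acrbp and of Spata16 turned without WT LZ replicate 1 (0.010 and 0.089) and without Cnot4-null PD replicate 2 (0.16 and 0.28).

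The acrosome holds many other proteins, and 36 of their genes in 3 lists, with none at 0 in both libraries of a group, were compared in the same fit. In WT, 16 of 36 were called higher in PD than in LZ and 3 lower, against 21.6% and 36.2% of all genes, with a median log2 fold change of 1.07. This split became 20 higher and 2 lower after quantile normalization and 21 and 2 after rescaling. In Cnot4-null, 27 of 36 were called higher in PD and 1 lower, against 27.8% and 18.2%, with a median of 3.19. At LZ, 0 of 36 were called between the genotypes (limma; 7 at an unadjusted p under 0.05), and the median was -0.37. At PD, 13 of 36 were called higher in Cnot4-null and 10 lower, against 41.6% and 11.5% of all genes, with a median of -0.04. Quantile normalization gave 8 higher and 15 lower with a median of -0.49, and rescaling 11 higher and 15 lower with a median of -0.45. In the difference between the stages 7 were called higher and 1 lower, against 26.0% and 3.97% of all genes, with a median of 0.30, which became 7 higher and 7 lower with a median of -0.13 after rescaling, and 7 and 2 with a median of 0.0017 after quantile normalization.

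Among 11 acrosomal enzymes and their inhibitors, 6 were called higher in WT PD than in WT LZ by limma and 1 lower. The inhibitor Spink2 had 47.3 and 109 FPKM in WT LZ, 5417 and 5463 in WT PD, 18.3 and 9.38 in Cnot4-null LZ, and 2185 and 699 in Cnot4-null PD. The lysozyme-like Spaca3 had 3.32 and 10.4 FPKM in WT LZ, 14.3 and 9.62 in WT PD, 2.18 and 0.965 in Cnot4-null LZ, and 163 and 65.4 in Cnot4-null PD. Spink2 was thus ordered as Acr and Acrbp were, and Spaca3 as Acrv1 and Spaca1. The WT stage changes were largest for Spink2 at 6.22 and the protease gene Prss21 at 6.00, and Serpina5, an inhibitor of serine proteases, was lower at -1.33, a call lost after either scaling. In Cnot4-null 11 of 11 were called higher in PD, led by Spink2 at 6.45 and Spaca3 at 5.38. At PD, 4 were called higher in Cnot4-null, led by Serpina5 at 3.86 (SE 0.49, limma adjusted p = 0.000925) and Spaca3 at 3.03 (SE 0.58, 0.00510), and 5 lower, led by Spink2 at -2.14 (SE 0.61, 0.0220) and Prss21 at -2.01 (SE 0.55, 0.0188). Quantile normalization gave 2 higher and 5 lower. The median log2 fold change of these enzymes at PD was 0.29 and turned negative with quantile normalization (-0.02) and with rescaling (-0.13). Stage dependence was called for Serpina5 at 5.84 and Spaca3 at 4.52 by limma, and rescaling gave 2 higher and 2 lower. The WT PD libraries held 0.654 and 1.62 FPKM of Serpina5. Its level in Cnot4-null PD rose from 20.0 FPKM (replicate 1) to 42.1 FPKM (replicate 2), the direction of the summed Leydig cell markers. Spam1 rose there too, from 9.84 to 12.4 FPKM. Spaca3 and Spaca5, also called higher at PD, fell in replicate 2, as all members did. The part of other cells in the Serpina5 values was not tested.

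Among 10 acrosomal matrix and membrane proteins, 3 were called higher in WT PD than in WT LZ by limma and 0 lower (4 at an unadjusted p under 0.05), led by Crisp2 at 5.56 and Spesp1 at 5.09 on the log2 scale, and 6 were called higher after quantile normalization and 5 after rescaling. In Cnot4-null 9 were called higher in PD, led by Tmem190 at 5.47 and Spaca4 at 5.28. Spaca4, a membrane protein of sperm, had 5.23 and 20.6 FPKM in WT LZ, 8.86 and 9.50 in WT PD, 1.97 and 2.04 in Cnot4-null LZ, and 162 and 82.2 in Cnot4-null PD. Izumo1, which encodes the sperm ligand of the egg receptor JUNO, had 1.45 and 1.60 FPKM in WT LZ, 5.27 and 1.37 in WT PD, 1.55 and 3.08 in Cnot4-null LZ, and 38.3 and 17.2 in Cnot4-null PD. Both genes were high in Cnot4-null PD alone. At PD, 7 of 10 were called higher in Cnot4-null, led by Spaca4 at 3.52 (SE 0.57, limma adjusted p = 0.00250) and Izumo1 at 2.79 (SE 0.55, 0.00562), and Spesp1 was called lower at -1.72 (SE 0.45, 0.0159). This split of 7 higher and 1 lower became 4 and 2 after quantile normalization and 5 and 3 after rescaling. The list's median at PD was 1.97 (1.49 and 1.57 after these scalings) and the largest of the 3 acrosomal lists. Stage dependence was called higher in 3, led by Spaca4 at 5.47 and Tmem190 at 4.34, and after rescaling in 3 higher and 1 lower.

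Among 15 genes of acrosome biogenesis and of the acroplaxome, the plate that anchors the acrosome to the nucleus, 7 were called higher in WT PD than in WT LZ and 2 lower by limma. Dpy19l2, which encodes a protein of the inner nuclear membrane that faces the acrosome, had 0.481 and 2.0 FPKM in WT LZ, 144 and 156 in WT PD, 0.822 and 0.364 in Cnot4-null LZ, and 49.9 and 31.2 in Cnot4-null PD. Actl7a, an actin-related protein of the acroplaxome, had 2.87 and 6.00 FPKM in WT LZ, 5.52 and 4.33 in WT PD, 3.71 and 1.47 in Cnot4-null LZ, and 77.3 and 40.1 in Cnot4-null PD. Dpy19l2 was highest in WT PD and Actl7a in Cnot4-null PD. The WT stage changes were led by Dpy19l2 at 6.16 and Pfn4 at 4.06, with Rab3a at -2.48 and Vps54 at -1.46, and in Cnot4-null 7 were called higher, led by Dpy19l2 at 4.68 and Actl7a at 4.06, and Vps54 lower at -0.90, a split that quantile normalization turned to 5 and 3. At PD, 2 were called higher in Cnot4-null, Actl7a at 3.27 (SE 0.47, limma adjusted p = 0.00151) and Rab3a at 2.34 (SE 0.29, 0.000917), and 4 lower, led by Pfn4 at -2.11 (SE 0.51, 0.0121) and Dpy19l2 at -1.90 (SE 0.39, 0.00658). The split of 2 higher and 4 lower became 2 and 8 after quantile normalization and 2 and 7 after rescaling. Stage dependence was called for Actl7a at 3.88 and Rab3a at 3.05, and for Gopc, a Golgi gene, at -1.63 by limma, and quantile normalization gave 2 higher and 2 lower and rescaling 2 and 4. The list's median was -0.60 at PD, and -0.87 and -0.99 after these scalings.

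**Figure D4:**
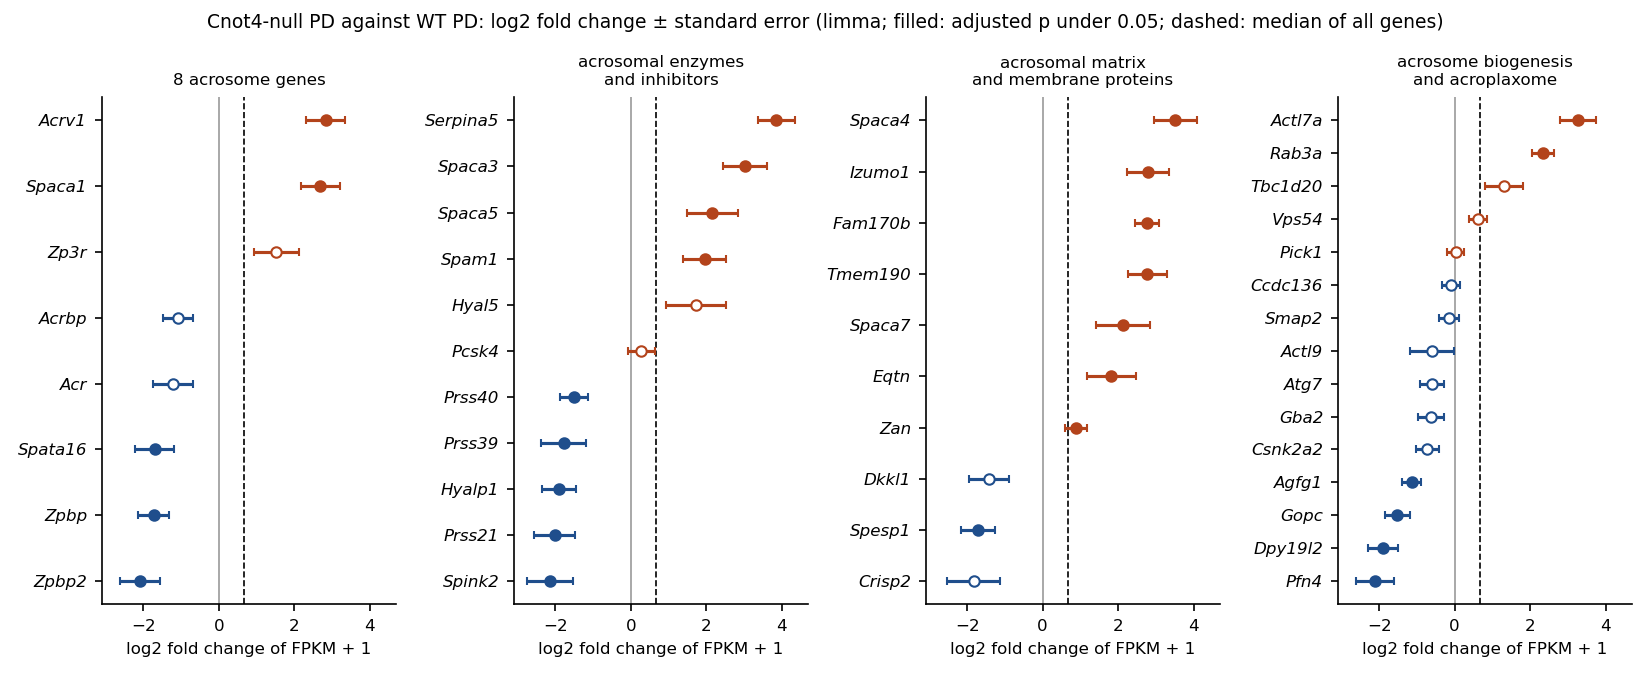
Log2 fold change of FPKM + 1 between Cnot4-null PD and WT PD for the 8 acrosome genes and for 36 other acrosome genes in 3 lists, with bars of 1 standard error from limma, filled points for an adjusted p under 0.05 and a dashed line at the median of all tested genes. The list of matrix and membrane proteins held 7 higher calls and 1 lower (4 and 2 after quantile normalization, 5 and 3 after rescaling), that of biogenesis 2 and 4 (2 and 8, 2 and 7), and the median of the enzymes and inhibitors was positive and turned negative after quantile normalization and after rescaling.

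The regulators of transcription in pachytene cells and spermatids include Mybl1, Rfx2 and Crem, whose families bind the motifs searched in the promoters. Of 9 regulators, 7 were called higher in WT PD than in WT LZ by limma, led by Rfx2 at 3.37 and Tbpl1 at 3.31. Taf7l was lower at -6.18. Of all genes, 21.6% were called higher there and 36.2% lower. Taf7l had 383 and 430.4 FPKM in WT LZ, 4.88 and 4.34 in WT PD, 518 and 392 in Cnot4-null LZ, and 95.2 and 109.8 in Cnot4-null PD. Fhl5, which encodes ACT, a coactivator of CREM, had 5.70 and 10.45 FPKM in WT LZ, 9.10 and 8.20 in WT PD, 8.12 and 0.490 in Cnot4-null LZ, and 95.7 and 37.5 in Cnot4-null PD. Fhl5 was high in Cnot4-null PD alone, whereas Taf7l was high in LZ of both genotypes and intermediate in Cnot4-null PD. In Cnot4-null, 6 were called higher in PD, led by Fhl5 at 4.05 and Rfx2 at 2.66, and Taf7l lower at -2.13, against 27.8% and 18.2% of all genes. Between the genotypes at LZ, 0 of 9 were called (limma, 0 at an unadjusted p under 0.05), against 0.0692% of all genes higher and 0.0252% lower. At PD, 2 were called higher in Cnot4-null, Taf7l at 4.20 (SE 0.21, limma adjusted p = 9.49e-05) and Fhl5 at 2.66 (SE 0.82, 0.0297), and 5 lower, led by Tbpl1 at -1.95 (SE 0.35, 0.00367) and Tcfl5 at -1.65 (SE 0.32, 0.00537). Of all genes, 41.6% were called higher at PD and 11.5% lower. The split of 2 higher and 5 lower regulators became 2 and 6 after quantile normalization and 2 and 6 after rescaling. Stage dependence was called for Taf7l at 4.05 and Fhl5 at 3.91 and, in the other direction, for Tbpl1 at -1.97 and Tcfl5 at -1.81 (limma). The split of 2 higher and 2 lower, against 26.0% and 3.97% of all genes, became 1 and 3 after quantile normalization and 2 and 6 after rescaling. Whether any of these regulators acts on the acrosome genes was not tested.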

How the data were processed

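RNA-seq values of 8 libraries were analysed, 2 for each of WT and Cnot4-null at LZ and PD. The deposited values are FPKM, which the authors computed per gene symbol and library. The submitters' processing notes name TopHat2 2.1.1, Cufflinks 2.2.1 and mm9, and a scaling between libraries is not described. Symbols that exceeded 1 FPKM in any library were tested. The 4 group means were fitted to log2(FPKM + 1) in R 4.3.3 with the package limma 3.58.1 (functions lmFit and contrasts.fit, then eBayes with a trend, two-sided), with 5 contrasts, each adjusted by the Benjamini-Hochberg method over all 15899 tested genes and called at an adjusted p under 0.05. Tables and figures were made with matplotlib 3.10.9, scipy 1.17.1, pandas 2.3.3 and numpy 2.4.6 under Python 3.11.15, and the procedure was tested on simulated data. Gene positions and lengths came from GENCODE vM1, and promoters from RefSeq.

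The members and all lists were chosen with earlier results of these data known. The genes named are the 8 members, Cnot4, the 3 tested genes nearest in pattern to each member (mean of at least 5 FPKM), and from each list the 2 largest called changes in each direction in a contrast and any gene at 0 in all libraries of a group. Also named are Ing4 and 4930415F15Rik, which overlap a member, and the most abundant gene of a marker list. Odf1, Smcp, Star, Piwil1 and Hist1h1t are named because they differed between replicates in the other direction from their list's sum. Zan is named for its low values. Mybl1 and Crem are named because their families bind the motifs searched. Left out are the named genes of the cell type markers in contrasts other than the stage contrasts for spermatocyte markers and the genotype contrast at PD. The lists are acrosomal enzymes and inhibitors, acrosomal matrix and membrane proteins, acrosome biogenesis and acroplaxome genes, regulators, and markers of LZ and PD spermatocytes, spermatids, spermatogonia, Sertoli cells, Leydig cells, macrophages and peritubular cells. Eqtn, Hyalp1, Meiob and Adgre1 were listed under the older symbols 4930579C15Rik, Hyal6, 4930528F23Rik and Emr1, and Rhox5 was not found. Amh, Fshr and Mrc1 did not pass the filter.

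The alternatives were no filter, a mean of at least 5 FPKM, pseudocounts of 0.1 and 5, quantile normalization, a rescaling that gives every library 1 median over the genes above 1 FPKM throughout, no trend, only the libraries compared, a replicate block, an adjusted p under 0.01, and leaving out each library in turn. Where a group is left with 1 library, limma assumes that it varies like the other groups. The poly(A) tail and protein data of the study were not analysed here.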

Additional observations from a re-analysis of the deposited data

Results flagged for a closer look

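The genotype difference of Acrv1 at PD exceeded that at LZ by 4.31 on the log2 scale, and that of Spaca1 by 3.42. Without WT LZ replicate 1 these were 5.17 and 4.15, and without WT LZ replicate 2 they were 3.46 and 2.70. By the rule for a call used throughout, the difference was called in 16 of 16 alternatives for Acrv1 and in 12 of 16 for Spaca1. The call of Spaca1 was lost without WT PD replicate 2, without either Cnot4-null LZ library and without the filter on low values. What drew attention to both is that the effect of the genotype differed between the stages by limma's test of the difference itself (adjusted p = 0.00626 and 0.0141). These were 2 of 8 members, near the share of all genes called higher in this difference, 26.0%. In the same difference, 9 of 11 spermatid markers were called higher by limma, with a median of 4.43, and 8 of 8 Leydig cell markers, with a median of 5.62 (5 called after quantile normalization). The part of these cells in the values of Acrv1 and Spaca1 was not tested. Groups of 2 libraries were not tested for single samples that lie far from the others.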

How the results depend on the processing

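Of 667 log2 fold changes of single members under the alternatives, all at the limit of 0.05, 616 kept their direction and their side of the limit, 19 lost a call, 19 gained one and 13 turned their sign, none of them called. The number of members called at PD between the genotypes (5) was 3 without a filter, 2 with only the libraries compared, 2 at an adjusted p under 0.01, 7 with a pseudocount of 5 and 7 after rescaling, and ranged from 2 to 6 when each library was left out. The number called in the stage dependence (2) was 1 without a filter, 1 at an adjusted p under 0.01, 3 with a pseudocount of 0.1 and 3 after rescaling, and ranged from 1 to 3 when each library was left out. When each library was left out, the number called was 5 to 6 in the WT stage comparison, 8 in the Cnot4-null stage comparison and 0 between the genotypes at LZ. With the replicate number as a block (replicate block), the numbers called were 5, 8, 0, 5 and 2 in the order of the report. They were the same without the block. Whether libraries with the same number share an animal or a sort is not known. Their replicate differences correlated over genes at 0.194 for the Cnot4-null stages and at -0.0651 to 0.0826 for the other pairs of groups. Such values cannot show whether libraries pair. A mean of at least 5 FPKM removes Zp3r by construction.

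The turned values were as follows, each with its range when each library was left out. In the WT stage comparison, Acrv1 ranged from -0.12 without WT LZ replicate 1 to 1.60. Spaca1 ranged from -0.41 without WT LZ replicate 1 to 1.04, and was at -0.051 without WT PD replicate 1. In the stage dependence, Acr ranged from -0.61 without WT LZ replicate 2 to 1.02, and was at -0.45 with a pseudocount of 5, -0.26 after rescaling, -0.041 without Cnot4-null LZ replicate 1 and -0.24 without Cnot4-null PD replicate 1. Acrbp ranged from -0.89 to 0.16 without Cnot4-null PD replicate 2, and was at 0.012 after quantile normalization and 0.010 without WT LZ replicate 1. Spata16 ranged from -1.21 to 0.28 without Cnot4-null PD replicate 2, and was at 0.089 without WT LZ replicate 1. The cause was not tested. The values hold no counts per gene, so no counting error is given for members near 0, such as Zp3r.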
